A study of Mus musculus with 7 samples.

Results

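Messenger RNA of 37 genes that sense stress in the endoplasmic reticulum (ER), fold proteins there or remove misfolded ones was compared between Wnt4βKO and control mouse islets. The genes were taken from a written list, and each was represented by the probe with the highest mean signal over all arrays. All 37 were found among the 22911 genes named on the array, and all 37 probes were well above background on all 7 arrays. They fall into 6 branches: the stress sensors with Xbp1, the Perk-Atf4-Chop arm, chaperones and their cofactors, disulfide foldases, ER-associated degradation, and the translocon subunit Sec61b with Wfs1.

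Islets of 7 samples were measured, 3 control and 4 Wnt4βKO, with 1 single-colour oligonucleotide array each. Every mouse, control or mutant, was homozygous for floxed Wnt4 (Wnt4 fl/fl), came from crosses to C57BL/6J and received tamoxifen by gavage, 2 doses between 4 and 5 weeks of age. Wnt4βKO mice also carried Pdx1CreER (Tg+), a tamoxifen-inducible Cre recombinase, and controls were Cre-negative littermates (Tg-). Males were used per the study's methods and islets were taken at 7 weeks by the protocol (the titles bear an unexplained code, w11), and a 4th control array had been left out by the study for quality. The Pdx1 promoter is active in β-cells and in some other islet cells, so recombination outside β-cells is possible, and no group carried Cre without floxed alleles. Each sample label bears its own code, but that the codes are separate animals is not stated, so p-values measure the spread between these samples.

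Proteins bound for secretion enter the ER through the Sec61 channel, are held by chaperones such as BiP, and gain disulfide bonds from protein disulfide isomerases. When unfolded protein accumulates, 3 membrane sensors respond: Ire1 (Ern1) splices the messenger of Xbp1, Perk (Eif2ak3) slows translation and favours Atf4, and Atf6 is cleaved to release a transcription factor. Their shared targets are chaperones, foldases and the degradation machinery that pulls misfolded protein back to the cytosol. Insulin-producing β-cells and enzyme-producing acinar cells of the exocrine pancreas both depend on this system.

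The promoters of many of these genes hold the ER stress element, the paired motif CCAAT and CCACG set 9 bases apart, which is bound by NF-Y and Atf6. In the 250 bases before the gene start, searched on both strands in RefSeq promoters of assembly GRCm38.p6, the element was found in 10 of the 32 listed genes that had a promoter in the table (31.25%), against 35 of all 27025 genes (0.130%). It was present in 6 of 9 chaperones and cofactors, 2 of 5 foldases and 2 of 8 degradation genes. In these windows it was in none of Ern1, Eif2ak3 and Xbp1, the 5 genes of the Perk-Atf4-Chop arm or Sec61b and Wfs1. Shown here are 6 of the 10, chosen to include both orientations and 2 genes that were lower in Wnt4βKO islets (Ero1b and Syvn1), with both motifs of the element in capitals and each sequence written in the direction of the gene.
Hspa5, chr2:34772005-34772063, plus strand: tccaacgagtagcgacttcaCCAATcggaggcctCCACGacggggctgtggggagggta
Canx, chr11:50325780-50325838, minus strand: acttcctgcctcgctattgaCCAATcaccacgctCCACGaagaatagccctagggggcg
Syvn1, chr19:6046512-6046570, plus strand: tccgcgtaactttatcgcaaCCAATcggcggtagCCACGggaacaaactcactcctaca
Creld2, chr15:88819500-88819558, plus strand: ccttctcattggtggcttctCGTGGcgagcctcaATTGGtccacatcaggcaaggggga
Ero1b, chr13:12565662-12565720, plus strand: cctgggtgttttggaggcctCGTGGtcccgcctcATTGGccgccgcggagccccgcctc
Derl3, chr10:75893222-75893280, plus strand: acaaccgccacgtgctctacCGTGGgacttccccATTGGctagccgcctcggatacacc
In Hspa5, Canx and Syvn1 the element reads in the direction of the gene, and in Creld2, Ero1b and Derl3 on the opposite strand. Counted from the gene start, the element began at position -65 in Hspa5, the gene of the chaperone BiP, and at -201 in Ero1b, whose product passes oxidising power to disulfide isomerases. Hsp90b1 held 2 elements, and Calr, Dnajc3 and Pdia6 held 1 each. The other motif searched, TGACGTG, the core of the unfolded protein response element, occurred in 1 of the 32 genes, Hspa5, without overlapping its ER stress element, and in 1.85% of all promoters. Atf6, Hyou1, Sil1, Manf and Derl1 were not in the promoter table.

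Of the 37 genes, 31 had a lower mean signal in Wnt4βKO than in control islets and 6 a higher one. The 6 include Hsp90b1, which was measured on 3 arrays and lay at -0.27 with flagged spots kept. The median log2 difference of the 37, Wnt4βKO minus control, was -0.24. Over all 26151 tested probes it was 0.001, and 49.6% of them lay below 0. At an unadjusted two-sided limma p under 0.05, 8 genes (21.6%) were lower: Chac1, Dnajb9, Ero1b, Edem1, Edem2, Sel1l, Syvn1 and Sec61b. Over all tested probes 3.76% were lower at that threshold. No gene of the list was higher, where the share over all probes was 3.26%. With p-values adjusted by Benjamini-Hochberg over all tested probes, none of the 37 passed, the smallest adjusted limma p being 0.542, and 0.0153% of all probes passed. In 6 genes (16.2%) every Wnt4βKO array lay below every control array, beside 3.84% of all probes. Under median scaling of the arrays 4 genes were lower, beside 2.08% of all probes, and 1, Hsp90b1, was higher, beside 0.86%. Only 1 control and 2 Wnt4βKO arrays gave Hsp90b1 a value. The differences of the 8 genes corresponded to levels 1.18- to 1.82-fold lower. These sizes hold for a background correction with an offset of 50. With an offset of 0, Edem2 was at -0.97 instead of -0.60 and Edem1 at -0.86 instead of -0.68, and the others changed by less. In whole islets, less RNA per cell and fewer cells that make it cannot be told apart.

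**Figure D1:**
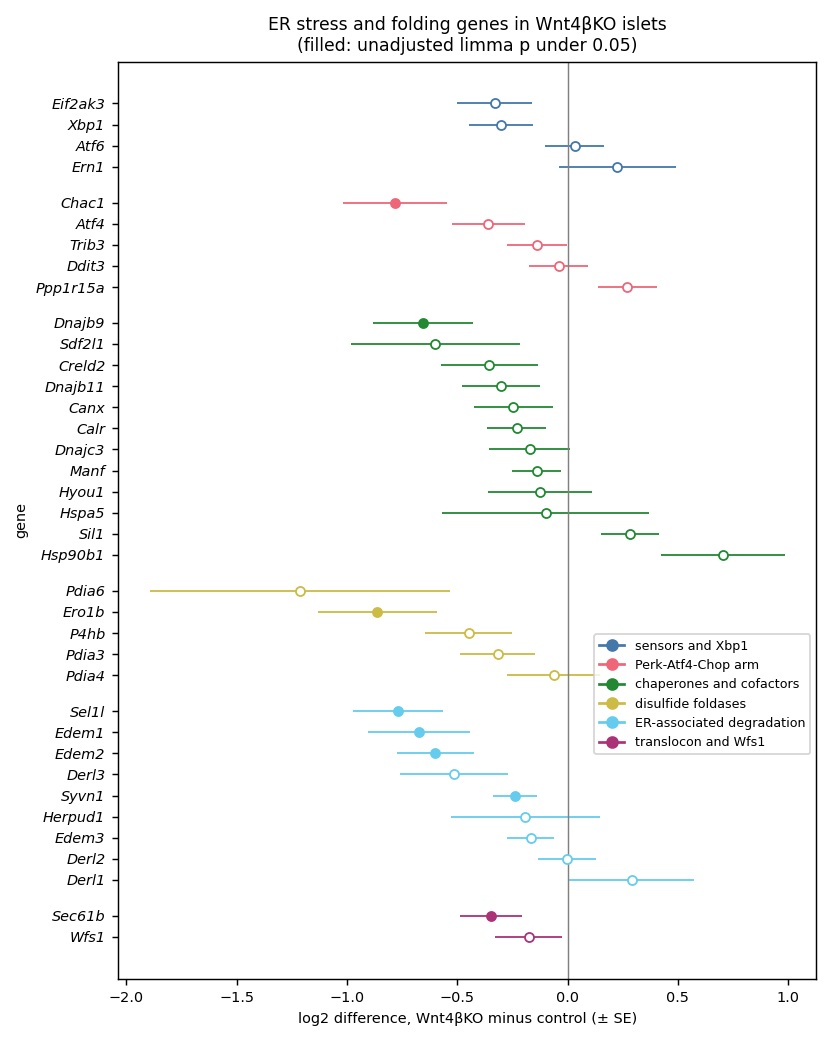
Log2 difference between Wnt4βKO and control islets for each of the 37 genes, by branch, with the standard error of the limma fit as bars and filled points for an unadjusted p under 0.05. Most points lie left of 0, the 5 foldases all do, and Hsp90b1, Derl1, Sil1, Ppp1r15a, Ern1 and Atf6 lie to the right. Hsp90b1 rests on 1 control and 2 Wnt4βKO arrays.

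Wnt4, the inactivated gene, was examined as a check. Control arrays averaged 11.51 ± 0.31 on the log2 scale (SD, n = 3) and Wnt4βKO arrays 11.01 ± 0.22 (SD, n = 4), a difference of -0.49 ± 0.17 (SE) with an unadjusted limma p of 0.0237 and an adjusted p of 0.651. The groups overlapped, and whether the probe covers the deleted exons is not known here. Islet identity was checked with marker genes: all 14 β-cell, 7 α-cell and 6 δ- and PP-cell markers were detected. Of the β-cell markers 2 were lower (Slc2a2, which also passed the adjusted threshold, and Trpm5) and 1 higher (Ins1), and their median difference was -0.01. Acinar cells were also represented. All 26 acinar enzymes with a probe were detected, 22 of them lower in Wnt4βKO islets, with a median difference of -0.59. Their differences ran from -2.07 to 0.18, and 9 were lower at an unadjusted limma p under 0.05, as were 3.76% of all probes. The 5 acinar transcription factors examined were all lower, 3 of them at that threshold, with a median difference of -0.38.

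The mean log2 signal of the acinar enzymes in each array stands beside the results that follow. Control replicates 2 to 4 stood at 13.73, 13.62 and 13.63, and Wnt4βKO replicates 1 to 4 at 12.46, 13.46, 13.36 and 12.74. All 4 Wnt4βKO arrays were thus below all 3 control arrays, replicates 1 and 4 by the most. The difference of -0.66 had an exact two-sided permutation p of 0.0857 over the 35 splits of the 7 arrays. The smallest p this permutation test can give is 0.0571, so it could not fall under 0.05. None of these enzymes was at background in the arrays. Because the acinar mean and the genotype move together, they cannot be told apart by these arrays alone, and the part of the acinar signal in the results was not tested beyond the values given.

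In the branch of the sensors and Xbp1, Eif2ak3 and Xbp1 had lower means in Wnt4βKO islets and Ern1 and Atf6 higher ones. The median difference of the 4 was -0.13, and none passed the unadjusted threshold. With the slide row as a block in the fit, Eif2ak3 and Xbp1 passed it, at -0.38 and -0.34. Ern1, the Ire1 kinase and endonuclease, gave log2 signals of 8.45, 7.62 and 8.61 in the controls and 8.70, 8.002, 8.57 and 8.55 in the Wnt4βKO arrays, in order of replicate number. Both groups held 1 low array, and they overlapped, with a difference of 0.23 ± 0.27 (SE). Eif2ak3, which encodes Perk, was at 7.49, 7.04 and 7.73 in controls and at 7.00, 7.33, 6.97 and 7.04 in Wnt4βKO islets. Control replicate 3 sat among the Wnt4βKO arrays, and the difference was -0.33 ± 0.17 (SE; unadjusted limma p of 0.0927). Atf6 signals were 8.46, 8.81 and 8.63 against 8.43, 8.61, 8.90 and 8.73, fully interleaved, with a difference of 0.03 ± 0.13 (SE).

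Xbp1, the transcription factor activated by Ire1-dependent splicing, had the smallest p of this branch. Its control arrays gave 11.71, 12.03 and 12.20, and its Wnt4βKO arrays 11.67, 11.81, 11.80 and 11.42. Only control replicate 2 fell into the Wnt4βKO range, and the difference was -0.30 ± 0.15 (SE; unadjusted limma p of 0.0742). The 2 other Xbp1 probes gave differences of -0.55 ± 0.40 and -0.45 ± 0.35 (SE). No probe was assigned to the spliced or the unspliced form.

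In the Perk-Atf4-Chop arm 1 of 5 genes was lower at the unadjusted threshold, as were 3.76% of all probes, and the median difference was -0.14. Chac1, which degrades glutathione and is induced through Atf4, was lower, whereas Ddit3, which encodes the stress factor Chop, hardly differed and Ppp1r15a, the phosphatase subunit Gadd34 that restores translation, had a higher mean. Chac1 signals were 10.67, 10.11 and 10.00 in controls and 9.49, 8.96, 9.78 and 9.68 in Wnt4βKO arrays, so that the groups did not overlap and Wnt4βKO replicate 2 was lowest. The difference was -0.78 ± 0.24 (SE; unadjusted limma p of 0.0121, adjusted 0.608), a level 58.1% of that in controls. The call held with any 1 array left out.

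Atf4, the transcription factor of this arm, was at 13.09, 12.99 and 13.23 in controls and at 12.64, 12.39, 12.87 and 13.08 in Wnt4βKO islets. Only Wnt4βKO replicate 4 reached the control range, and the difference was -0.36 ± 0.16 (SE; unadjusted limma p of 0.0630). Within the first row of the slide the Atf4 difference was -0.71, with 1 control array. Within the second row it was -0.07, with 2 arrays a group. The part of the slide position was not tested. The dimmer Atf4 probe gave -0.54 ± 0.24 (SE). Ddit3 was at 7.35, 7.49 and 7.43 against 7.07, 7.63, 7.49 and 7.35, with a difference of -0.04 ± 0.13 (SE). The Ddit3 arrays of the groups were interleaved. Trib3, a pseudokinase induced by Atf4 and Chop, differed by -0.14 ± 0.13 (SE), and Ppp1r15a by 0.27 ± 0.13 (SE; unadjusted limma p of 0.0768).

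Among the 12 chaperones and cofactors, 10 had a lower mean in Wnt4βKO islets, with a median difference of -0.20. At the unadjusted threshold, where 3.76% of all probes were lower, 1 of the 12 passed. That gene was Dnajb9 (ERdj4), a cochaperone of BiP induced through Xbp1. It gave 9.93, 10.42 and 9.63 in controls and 9.36, 9.21, 9.76 and 9.04 in Wnt4βKO arrays. Wnt4βKO replicate 3 lay above control replicate 4, and the other 3 mutant arrays below all controls. The difference was -0.65 ± 0.23 (SE; unadjusted limma p of 0.0220, adjusted 0.643), and the call was lost when control replicate 3 or either of Wnt4βKO replicates 2 and 4 was left out. A dimmer Dnajb9 probe gave -0.52 ± 0.17 (SE; unadjusted limma p of 0.0152) with no overlap between groups.

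Hspa5 (BiP), the main Hsp70 chaperone of the ER, showed no difference beyond its spread. Its signals were 11.79, 11.80 and 11.10 in controls and 11.15, 10.38, 11.89 and 12.44 in Wnt4βKO islets, the latter holding both the lowest and the highest value. The difference was -0.10 ± 0.47 (SE; unadjusted limma p of 0.838), and the dimmer probes gave -0.19 ± 0.24 and -0.44 ± 0.25 (SE). The 3 lowest arrays, control replicate 4 and Wnt4βKO replicates 1 and 2, were those in the first row of the slide. Within that row the difference was -0.33, with 1 control array, and within the second row it was 0.37, with 2 arrays a group. The part of the slide position in these values was not tested.

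Hsp90b1 (Grp94) was measured on 3 arrays only, because its spot was flagged as an outlier on the others. The remaining values were 9.89 in control replicate 4, 10.33 in Wnt4βKO replicate 1 and 10.85 in Wnt4βKO replicate 2, and the fitted difference was 0.70 ± 0.28 (SE; unadjusted limma p of 0.0783). With flagged spots kept it was -0.27, so no direction is given for this gene. Calr, the lectin chaperone calreticulin, was at 10.59, 10.38 and 10.62 in controls and 10.34, 10.37, 10.50 and 9.99 in Wnt4βKO islets. Its groups overlapped slightly, and the difference was -0.23 ± 0.13 (SE; unadjusted limma p of 0.125).

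Sil1, the nucleotide exchange factor of BiP, had the second smallest p of the branch and a higher mean. It gave 11.23, 10.88 and 11.11 in controls and 11.57, 11.15, 11.45 and 11.27 in Wnt4βKO arrays, a difference of 0.28 ± 0.13 (SE; unadjusted limma p of 0.0633), with control replicate 2 above Wnt4βKO replicate 2. Its dimmer probe went the other way, at -0.35 ± 0.17 (SE), with every Wnt4βKO array below every control array, so the direction of Sil1 depended on the probe. Of the remaining genes, the BiP cofactor Sdf2l1 differed by -0.60 ± 0.38 (SE), the secreted Creld2 by -0.35 ± 0.22, the cochaperones Dnajb11 by -0.30 ± 0.18 and Dnajc3 by -0.17 ± 0.18, the lectin Canx by -0.25 ± 0.18, the exchange factor Hyou1 by -0.12 ± 0.24 and the secreted stress factor Manf by -0.14 ± 0.11. None of these 7 passed the unadjusted threshold. The dimmer probe of Manf gave -0.78 ± 0.34 (SE).

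All 5 disulfide foldases had a lower mean in Wnt4βKO islets, with a median difference of -0.45, the lowest median of the 6 branches. Ero1b, the oxidase abundant in pancreas, gave 10.69, 11.30 and 10.71 in controls and 9.64, 9.92, 10.70 and 9.89 in Wnt4βKO arrays. Wnt4βKO replicate 3 was at the level of the lower controls and the other 3 mutant arrays were well below. The difference was -0.86 ± 0.27 (SE; unadjusted limma p of 0.0139, adjusted 0.608), a level 1.82-fold lower, and the call was lost without control replicate 3. P4hb, the founding protein disulfide isomerase, was at 10.93, 11.42 and 11.47 against 10.52, 11.13, 11.04 and 10.60. Control replicate 2 lay below Wnt4βKO replicates 2 and 3, and the difference was -0.45 ± 0.20 (SE; unadjusted limma p of 0.0566).

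Pdia6 had the largest difference of the 37 genes in size, -1.21 ± 0.68 (SE), and also the largest error (unadjusted limma p of 0.115). Its signals ran from 11.24 to 12.77 in controls and from 9.53 in Wnt4βKO replicate 4 to 12.50 in Wnt4βKO replicate 3. Without Wnt4βKO replicate 3, Pdia6 passed the unadjusted threshold, at -1.78. Pdia3 and Pdia4, further members of the isomerase family, differed by -0.32 ± 0.17 and -0.06 ± 0.21 (SE), and Pdia3 passed with the slide row as a block, at -0.25.

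ER-associated degradation held 4 of the 8 genes that passed the unadjusted threshold, and in all 4 the groups did not overlap. Over all tested probes 3.76% were lower at that threshold, and 3.84% had every Wnt4βKO array below every control array. Of the 9 degradation genes 8 had a lower mean, with a median difference of -0.24. Sel1l, the adaptor of the Hrd1 ubiquitin ligase in the ER membrane, had the smallest p of the 37 genes. It gave 11.84, 11.41 and 11.84 in controls and 10.58, 11.08, 11.33 and 10.72 in Wnt4βKO arrays, a difference of -0.77 ± 0.20 (SE; unadjusted limma p of 0.00635, adjusted 0.542). Its dimmer probe gave -0.30 ± 0.14 (SE). The ligase itself, Syvn1 (Hrd1), was at 11.26 in all 3 control arrays and at 11.10, 10.80, 11.004 and 11.18 in Wnt4βKO islets. Its difference was small, -0.24 ± 0.10 (SE; unadjusted limma p of 0.0464), and with 1 array left out its call held only where that array was Wnt4βKO replicate 4. The Syvn1 call was also lost with the slide row as a block, at -0.23.

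Edem1 and Edem2, lectins that trim mannose and mark glycoproteins for disposal, were both lower on both of their probes. Edem2 gave 7.19, 7.76 and 7.13 in controls and 6.53, 6.77, 6.76 and 6.96 in Wnt4βKO islets, a difference of -0.60 ± 0.17 (SE; unadjusted limma p of 0.00967, adjusted 0.589). Its dimmer probe differed by -0.61 ± 0.10 (SE; unadjusted limma p of 0.000340, adjusted 0.368). Edem1 was at 8.57, 8.28 and 8.16 against 7.23, 8.04, 8.02 and 7.36, with Wnt4βKO replicates 1 and 4 lowest. The Edem1 difference was -0.68 ± 0.23 (SE; unadjusted limma p of 0.0212) and that of its dimmer probe -0.56 ± 0.17 (SE). The Sel1l and Edem2 calls held with any 1 array left out, and that of Edem1 was lost without control replicate 2 or Wnt4βKO replicate 4.

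Herpud1, a scaffold of the same ligase complex and a target of several of the sensors, was at 9.89, 10.31 and 9.94 in controls and 10.50, 9.79, 10.16 and 8.97 in Wnt4βKO arrays. The mutant arrays spanned the control range on both sides, with a difference of -0.19 ± 0.34 (SE). Edem3, the third Edem lectin, differed by -0.17 ± 0.10 (SE). The derlins are membrane proteins of the retrotranslocation channel, and none of the 3 passed the unadjusted threshold: Derl3 differed by -0.52 ± 0.25 (SE; unadjusted limma p of 0.0718), Derl2 by -0.004 ± 0.13 and Derl1 by 0.29 ± 0.28. The control value of Derl1 rested on a low replicate 4 at 6.49, and without it the difference was -0.10.

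Sec61b, the β subunit of the channel through which new proteins enter the ER, was at 12.70, 12.61 and 12.47 in controls and at 11.89, 12.41, 12.28 and 12.40 in Wnt4βKO islets. The groups did not overlap and the difference was -0.35 ± 0.14 (SE; unadjusted limma p of 0.0411), lost without control replicate 2, control replicate 3 or Wnt4βKO replicate 3. A block for the slide row also lost it, at -0.32. Its other probe gave 0.14 ± 0.15 (SE), so the 2 probes did not share a direction. Wfs1, the calcium-regulating ER membrane protein mutated in Wolfram syndrome, was at 9.45, 9.37 and 9.71 against 9.46, 9.06, 9.62 and 9.21, with overlap and a difference of -0.18 ± 0.15 (SE).

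**Figure D2:**
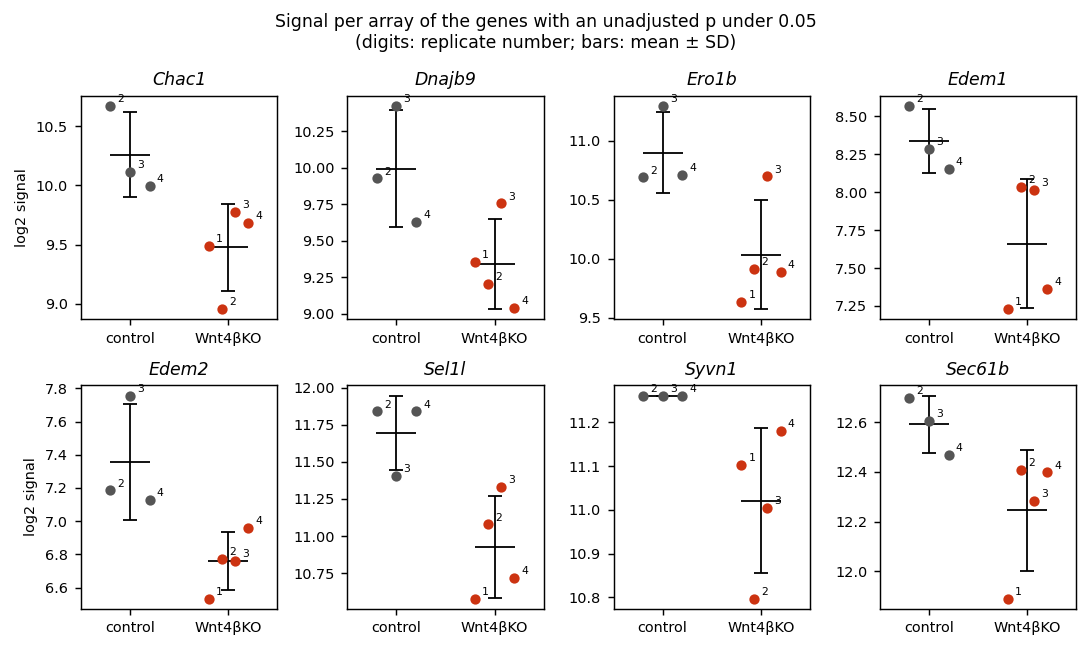
Log2 signal in each array of the 8 genes lower at an unadjusted p under 0.05, with replicate numbers beside the points and mean ± SD as bars. Wnt4βKO replicate 1 is the lowest array for Ero1b, Edem1, Edem2, Sel1l and Sec61b, and replicate 2 for Chac1 and Syvn1.

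The order of the arrays was not the same in every branch. The mean log2 signal of the foldases was 10.76, 10.82 and 10.32 in controls and 9.74, 10.06, 10.61 and 9.80 in Wnt4βKO replicates 1 to 4, lowest in the replicates with the lowest acinar mean, 1 and 4. The degradation genes likewise were lowest in replicates 1 and 4, at 8.83 and 8.76, against 8.92 and 9.11 in replicates 2 and 3 and 9.35, 9.27 and 9.06 in controls. The Perk-Atf4-Chop arm had another order. It was lowest in Wnt4βKO replicate 2, at 8.91, the mutant array with the highest acinar mean, followed by 9.002 in replicate 1, 9.20 in replicate 3 and 9.30 in replicate 4, the last within the control range of 9.27 to 9.36. The chaperones were low in replicates 1 and 2, at 9.87 and 9.85, and at 10.31 and 10.21 in replicates 3 and 4, where controls ran from 10.21 to 10.38. Wnt4βKO replicates 1 and 2, lowest in the Perk-Atf4-Chop arm and in the chaperones, were the mutant arrays in the first row of the slide. The part of the slide position in the branch means was not tested. The sensors, at 8.94 to 9.06 in mutants and 8.88 to 9.29 in controls, and the Sec61b and Wfs1 pair, at 10.67 to 10.95 and 10.99 to 11.09, completed the set, the last without overlap between groups.

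**Figure D3:**
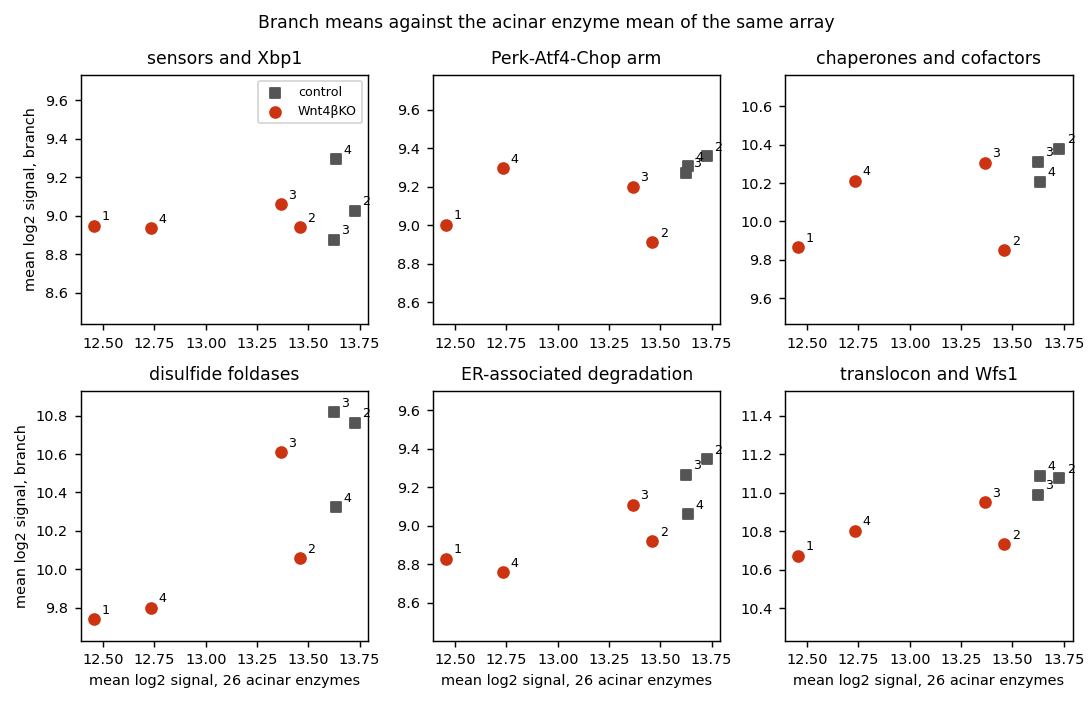
Mean log2 signal of each branch against the mean log2 signal of 26 acinar enzymes, 1 point per array, with replicate numbers and the same vertical span in each panel (Hsp90b1, missing on 4 arrays, is left out). Wnt4βKO replicates 1 and 4 lie at the left of every panel, at acinar means of 12.46 and 12.74, and are lowest in the foldase and degradation panels but not in that of the Perk-Atf4-Chop arm.

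With the acinar mean as a covariate, 27 of 36 genes lay below 0, Ern1 among them and Ddit3, Dnajc3, Manf, Pdia4 and Derl2 no longer, the median difference was -0.16, and 2 were lower at an unadjusted p under 0.05, Chac1 and Syvn1. In that fit 1.23% of all probes were lower. The foldase median moved from -0.45 to -0.15 and that of the Perk-Atf4-Chop arm from -0.14 to -0.37. Of the 36 genes, 20 moved towards 0 and 16 away from it. Edem1 moved from -0.68 to -0.09, Pdia6 from -1.21 to -0.15, P4hb from -0.45 to -0.08, Sec61b from -0.35 to -0.12, Sel1l from -0.77 to -0.33 and Ero1b from -0.86 to -0.48. Chac1 moved from -0.78 to -0.92, Syvn1 from -0.24 to -0.42, Atf4 from -0.36 to -0.50 and Canx from -0.25 to -0.51, while Edem2 stayed near its value, at -0.55 after -0.60.

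Without Wnt4βKO replicates 1 and 4, the arrays with the lowest acinar mean, 28 of 36 genes lay below 0 with a median difference of -0.22, and the acinar difference was -0.25. Chac1, Atf4, Canx, Edem2, Sel1l and Syvn1 were lower at an unadjusted p under 0.05, 6 of 36 genes where 1.69% of all probes were. Ero1b at -0.59, Dnajb9 at -0.51, Edem1 at -0.31 and Sec61b at -0.25 no longer passed.

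**Figure D4:**
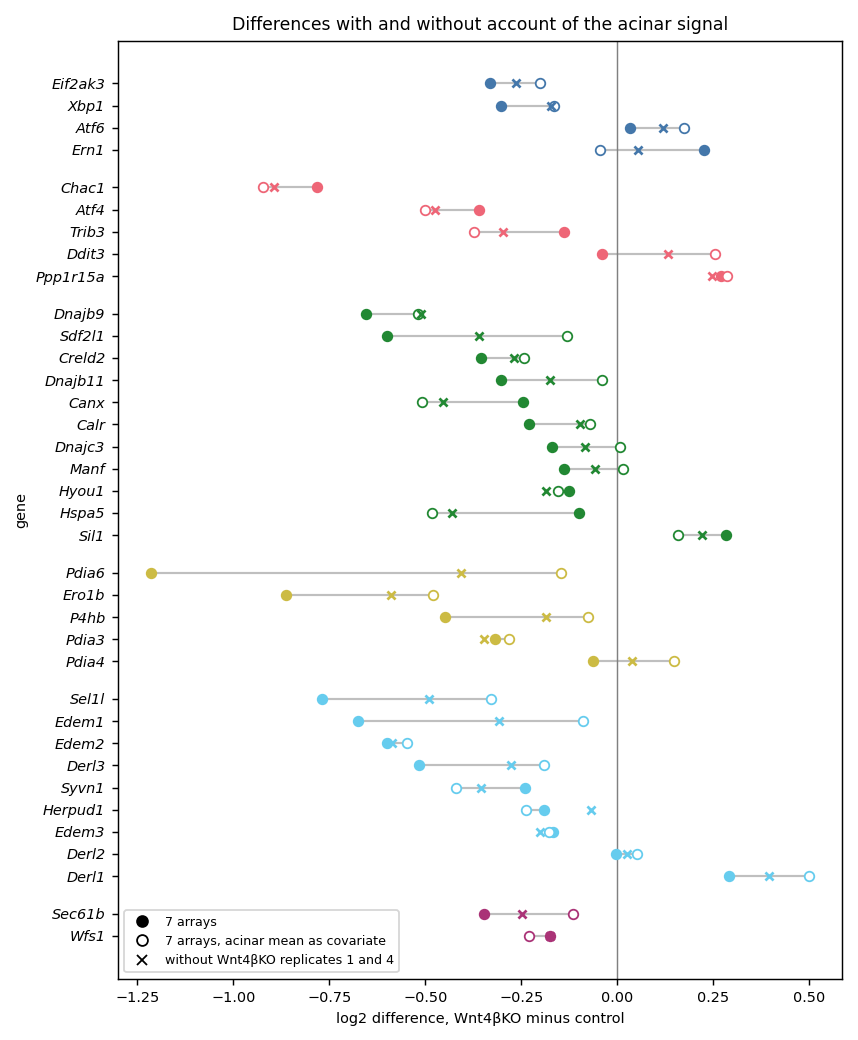
Log2 difference of 36 genes over all 7 arrays (filled), with the acinar mean as a covariate (open) and without Wnt4βKO replicates 1 and 4 (crosses), by branch. Edem1, Pdia6, P4hb and Sdf2l1 move towards 0, and Chac1, Atf4, Trib3, Canx, Hspa5 and Syvn1 move to more negative values.

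Several probes measured 17 of the 37 genes, which gave a second reading from the same arrays. In 15 of the 17 every probe had a lower mean in Wnt4βKO islets, the exceptions being Sil1 and Sec61b. Of the 20 dimmer probes 19 lay below 0, with a median difference of -0.34. At an unadjusted limma p under 0.05, 3 were lower, those of Dnajb9, Edem1 and Edem2. Among all tested probes, 49.6% lay below 0 and 3.76% were lower at that threshold. The dimmer probes were read on the same arrays as the brightest ones, with the same acinar means and slide rows. They are thus no independent test of the differences.

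**Figure D5:**
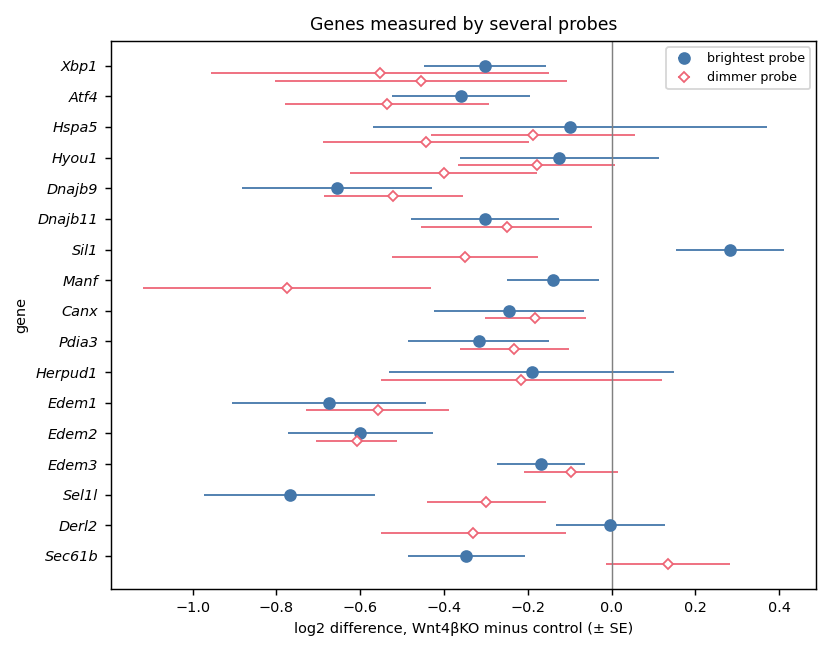
Log2 difference ± SE for each tested probe of the 17 genes with several probes, the brightest as a filled circle and the others as diamonds. Edem1, Edem2 and Dnajb9 have close values on both probes, whereas Sil1 and Sec61b have probes on opposite sides of 0.

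The genes with and without an ER stress element in their promoter were also set side by side. Of the 10 with the element, 9 had a lower mean, with a median difference of -0.24 and 2, Ero1b and Syvn1, below the unadjusted threshold. Of the 22 without it, 20 had a lower mean, with a median difference of -0.31 and 6 below the threshold. Over all probes 3.76% were lower at that threshold. The 6 without a match in the window searched were Sel1l, Edem1, Edem2, Dnajb9, Chac1 and Sec61b. Only exact matches of the element were counted, and its part in these differences was not tested. The values ran from -1.21 to 0.70 with the element and from -0.78 to 0.27 without it. The 0.70 is Hsp90b1, measured on 3 arrays and below 0 with flagged spots kept, and the next highest of the 10 was Hspa5 at -0.10.

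Other genes of the secretory pathway were described from further lists, with counts at an unadjusted limma p under 0.05, a threshold that 3.76% of all probes passed in the lower and 3.26% in the higher direction. Of 12 tested further foldases 2 were lower: Pdia2, an isomerase of the acinar pancreas, by -1.29 ± 0.43 (SE), and the prolyl isomerase Ppib by -0.42 ± 0.15. Of 14 translocation and signal peptidase genes 2 were lower, both catalytic subunits of the signal peptidase, Sec11c by -1.03 ± 0.22 and Sec11a by -0.47 ± 0.13 (SE). Their medians were -0.12 and -0.25. Among 11 genes of N-glycosylation, glucosidase I (Mogs) was lower by -0.33 ± 0.10 and the glucosidase II subunit Prkcsh higher by 0.77 ± 0.29 (SE), with a median of -0.14. Among 12 genes of ER export 2 were lower, the cargo receptor partner Mcfd2 by -0.71 ± 0.23 and the cargo receptor Tmed2 by -0.42 ± 0.13 (SE), with a median of -0.28. Of the genes named here, the groups overlapped in Mcfd2 alone.

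None of 11 further degradation genes passed, with a median of -0.17, the smallest p being that of the Vcp ATPase, -0.20 ± 0.10 (SE; unadjusted limma p of 0.0846). None of 7 genes of the Atf6 family and its processing passed either, with a median of -0.06. Among 16 Atf4 and stress targets 2 were lower and 1 higher, with a median of -0.11. Sesn2, a stress-induced regulator of nutrient signalling, was higher by 0.50 ± 0.12 (SE) without overlap of the groups, and Nupr1, a stress factor abundant in acinar cells, was lower by -1.33 ± 0.45. Of 18 cytosolic and mitochondrial chaperones 4 were lower and 1 higher, with a median of -0.18, led by the cochaperone Dnaja1 at -0.67 ± 0.14 and the heat-inducible Hspa1a at -0.77 ± 0.26 (SE). None of these genes passed the adjusted threshold.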

How the data were processed

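Islet RNA of 3 control and 4 Wnt4βKO samples was analysed, 50 ng labelled with Cy3 per array. For every array the authors deposited scanner output (Agilent Feature Extraction 12.0.1.1 per the file headers) holding spot intensities on a linear scale, not normalized between arrays. As the authors' methods state, background was corrected with normexp (offset 50) and values were quantile normalized. Control spots were then left out, flagged spots set to missing and spots of 1 probe averaged. The test covered 26151 of 56605 probes, those well above background on 3 or more of the 7 arrays, with lmFit and eBayes in limma 3.58.1 (R 4.3.3), two-sided, as Wnt4βKO minus control. Between 45.5% and 49.0% of spots were above background and none was saturated. The number of arrays, on 1 slide and in 1 scan, limits precision.

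Probes were named by accession through a RefSeq table of GRCm38.p6, which named 32994 of them. A gene with several probes was represented by its brightest. The members and lists were chosen with earlier results of these data known. All 37 genes are named. Values in every array are given for fixed members, for the smallest p of each branch and the second smallest in branches of at least 5, and were added for Edem1 and Syvn1 after their values were seen. At most 2 genes of each further list are named, those with the smallest p. Alternatives covered background, signal, normalization, filters, flags, variance model, probe choice, replicate block, acinar covariate, slide row and arrays left out. The deposited value table was not used, because after centring its columns did not correlate best with the scanner array of their own sample. The cause was not settled, and the group and replicate labels used here rest on the scanner files. The fit was tested on simulated data. Further steps used Python 3.11.15.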

Additional observations from a re-analysis of the deposited data

Results flagged for a closer look

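Among 44 sets of 4 Wnt4βKO values examined (genes, branch means and the acinar mean), 3 had 1 array far from the other 3, by the gap to its neighbour as a share of the range. Chance gives about 1 in 20. In Pdia4 this share was 0.844, with replicate 1 low at 7.21 and the others between 7.54 and 7.60. In Derl3 it was 0.866, with replicate 3 high at 10.23 and the others between 9.27 and 9.40. In the mean of the sensors and Xbp1 it was 0.904, with replicate 3 at 9.06 and the others between 8.94 and 8.95.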

How the results depend on the processing

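Across 21 alternatives no gene of the 37 passed the adjusted threshold, and the median difference stayed between -0.29 and -0.16. The count of genes lower at an unadjusted p under 0.05, 8 as reported, was 4 with median scaling (where 2.08% of all probes were lower, against 3.76% as reported), 4 with the scanner software's processed signal, centred at the 75th percentile (3.89%), 2 with the acinar covariate (1.23%), and 7 to 11 with 1 array left out (2.84% to 4.23%). Deviations of same-numbered samples correlated at -0.13, 0.23 and -0.01, where 0.23, for replicate 3, was the highest of any control and Wnt4βKO pair. These values do not settle whether the numbers mark pairs, so the replicate block was an alternative only. It gave 5 lower genes (3.00% of all probes) and 1 higher, Ppp1r15a (3.02%), and moved the degradation median to -0.41. In that fit Ddit3 was 0.065, Hspa5 0.0043, Pdia4 0.025 and Derl2 0.012. The count of higher genes was 1 with median scaling (0.86% of all probes) and 0 to 1 with 1 array left out (2.57% to 4.54%). That of genes without overlap was 6 to 14, being 10 without control replicate 2 or 4, 12 without control replicate 3 and 14 without Wnt4βKO replicate 3. Fewer arrays overlap less by construction. The share over all probes was computed only for the 7 arrays (3.84%), so nothing is concluded from the counts with fewer arrays.

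The degradation median was -0.44 with an offset of 0, -0.51 with the processed signal and -0.40 to -0.17 with 1 array left out. The median of Sec61b and Wfs1 was -0.13 with the processed signal and -0.14 with the mean over probes. That of the Perk-Atf4-Chop arm was -0.37 with the acinar covariate and -0.30 without Wnt4βKO replicates 1 and 4, where the acinar difference was -0.25. Wnt4 lost its unadjusted call with an offset of 0 (-0.51), the processed signal (-0.52) and median scaling (-0.45), and ranged from -0.67 to -0.35 with 1 array left out.

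Among genes with no call, signs turned as follows. With the processed signal Ddit3 was 0.066, Hspa5 0.028 and Derl2 0.026. With median scaling Derl2 was 0.024. With flagged spots kept Hsp90b1 was -0.27. With the mean over probes Sil1 was -0.034. With the acinar covariate Ern1 was -0.046, Ddit3 0.26, Dnajc3 0.0078, Manf 0.015, Pdia4 0.15 and Derl2 0.051. With the slide row as a block Hspa5 was 0.087, Pdia4 0.0080 and Derl2 0.037, and 9 genes were lower (4.22% of all probes), with Eif2ak3, Xbp1 and Pdia3 gained and Syvn1 and Sec61b lost. Without Wnt4βKO replicates 1 and 4 Ddit3 was 0.13, Pdia4 0.039 and Derl2 0.025. With 1 array left out Atf6 ranged from -0.056 to 0.12, Ern1 from -0.078 to 0.42, Ddit3 from -0.12 to 0.064, Hspa5 from -0.42 to 0.26, Hyou1 from -0.43 to 0.051, Pdia4 from -0.33 to 0.074, Herpud1 from -0.40 to 0.10, Derl1 from -0.099 to 0.51 and Derl2 from -0.17 to 0.084. The cause of these changes was not tested.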
